A study of Ovis aries with 7 samples.

Results

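STC1 (ENSOARG00000010042, chromosome 2:41704775-41716665) and SCG5 (ENSOARG00000019972, chromosome 7:27008263-27061858) are 2 of the 19205 reference gene IDs that were listed in at least 1 library of this sheep tail fat experiment. Both genes were chosen by their FPKM in the comparison of the breeds described here, so their breed difference is given as a description, with no test. FPKM is a number of sequenced fragments scaled to the length of the transcript and to the mapped fragments of the library. The value of a gene in a library is that of the rows whose locus overlaps the coordinates above, which was 1 row per gene and library. Coordinates follow the deposited tables, whose labels name the Oar_v3.1 genome.

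Stanniocalcin 1, the product of STC1, is a secreted glycoprotein hormone first known from the calcium balance of fish. In mammals it acts mostly near the cells that release it, and it has been studied in calcium and phosphate transport, in responses to low oxygen and in inflammation. SCG5 encodes secretogranin V, also called 7B2, a small acidic protein of the regulated secretory pathway. It binds the proprotein convertase PCSK2, which cuts prohormones in secretory granules, and keeps that enzyme from becoming active too early. SCG5 is best known from neurons and endocrine cells.

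RNA from the tail adipose tissue of male lambs was sequenced after poly(A) selection, with 1 library per lamb. The Zel group (thin-tailed) held 4 libraries and the Ghezel group (fat-tailed) held 3. Lambs of both breeds were weaned at 90 days, shared a diet for 120 days in individual pens, and were slaughtered at 7 months, and the labels give no treatment. A Ghezel library that failed left the groups unequal. Nothing in the sources says which lambs, if any, were related or were handled on the same day.

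The 7 libraries had like totals of implied fragments but were assembled differently. Depth is given as the fragments that the width of each FPKM confidence interval implies, which summed to 7308112 to 7827375 per library. These sums are not counts of mapped reads, of which the paper reports several times more per library. Loci that carried an ID of their own library rather than a reference ID had a median span of 963 bases in Zel 3, 1409 bases in Zel 4 and 3641 bases in Ghezel 3, against 5400 to 8935 bases in the other 4 libraries. The IDs of Zel 1, Zel 3, Zel 4 and Ghezel 3 included letters for the breed, and those of Zel 2, Ghezel 1 and Ghezel 2 did not. Whether these naming styles mark separate runs is not given, and values within each style are given beside the pooled ones. Symbols stand beside few of the IDs, and the ID that the paper gives for FABP4 was listed in no library. Of 67 genes on the lists of cell type markers and related pathways only 2 could be placed. None of the 10 adipocyte markers was among them, and the tissue label could therefore not be checked.

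In the rows over the annotated gene, STC1 was highest in Zel 2 and lowest in Zel 3. Its FPKM, with the bounds of the deposited interval, was 6.38 (5.73 to 7.04) in Zel 1, 61.2 (58.5 to 63.9) in Zel 2, 0.223 (0 to 0.447) in Zel 3 and 17.3 (16.3 to 18.4) in Zel 4. In the Ghezel libraries it was 1.25 (0.937 to 1.57), 1.35 (1.06 to 1.65) and 0.434 (0.106 to 0.762) for Ghezel 1 through Ghezel 3. Zel 1, Zel 2 and Zel 4 thus lay above every Ghezel library, while Zel 3 lay below all of them, and the breeds overlapped.

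SCG5 was highest in Zel 4 and Zel 3 and lowest in Ghezel 2. Its FPKM was 0.775 (0.142 to 1.41) in Zel 1, 2.92 (1.97 to 3.87) in Zel 2, 6.0 (4.47 to 7.52) in Zel 3 and 14.1 (10.7 to 17.5) in Zel 4. In Ghezel 1, Ghezel 2 and Ghezel 3 it was 0.247 (0 to 0.596), 0.109 (0 to 0.326) and 1.35 (0.577 to 2.12). Zel 2, Zel 3 and Zel 4 lay above every Ghezel library, and Zel 1 lay below Ghezel 3.

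**Figure D1:**
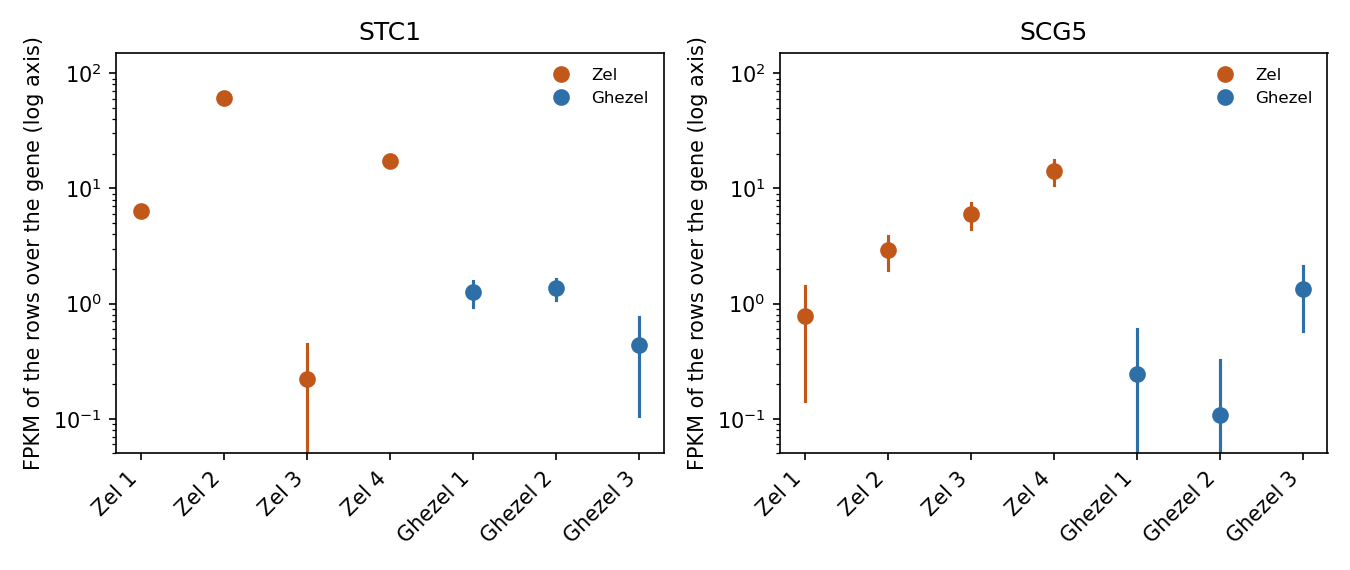
FPKM of STC1 and SCG5 in the rows over each annotated gene, by library, on a log axis, with lines for the deposited confidence bounds, which leave the axis where the lower bound is 0. STC1 is at 0.223 in Zel 3 and between 6.38 and 61.2 in the other 3 Zel libraries, and SCG5 is at 0.775 in Zel 1, below the 1.35 of Ghezel 3.

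The low STC1 value of Zel 3 came with a differently drawn locus. In 5 libraries the STC1 row was 1 locus that ran 2781 to 2890 bases past the annotated end of the gene, to between 41719446 and 41719555. In Zel 3 and Ghezel 3 the row with the reference ID stopped at the annotated end, 41716665, and a separate row with an ID of the library lay beyond it. This second row spanned 41717519-41719550 in Zel 3, 2032 bases long and 853 bases from the gene, with an FPKM of 87.7 (84.3 to 91.0). In Ghezel 3 it spanned 41717163-41719545, 2383 bases long and 497 bases from the gene, with an FPKM of 9.30 (8.32 to 10.3).

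Nearly all fragments of the region lay in that second row in both libraries. The row over the gene held 4.00 implied fragments in Zel 3 and the row beyond it held 2750, so 99.9% of the fragments lay outside the annotated span. In Ghezel 3 these were 7.00 and 358 fragments, or 98.1% outside. In the undivided libraries the row held 380 (Zel 1), 2018 (Zel 2), 1035 (Zel 4), 63.3 (Ghezel 1) and 86.6 (Ghezel 2) fragments. The second rows ended at 41719550 (Zel 3) and 41719545 (Ghezel 3). In the other 5 libraries the STC1 row ended between 41719446 (Ghezel 1) and 41719555 (Zel 2). No other row lay within 60000 bases of the gene in any library. The strand of the rows is not given in the tables, so whether the second row is the 3′ part of STC1 or another transcript cannot be told from them.

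**Figure D2:**
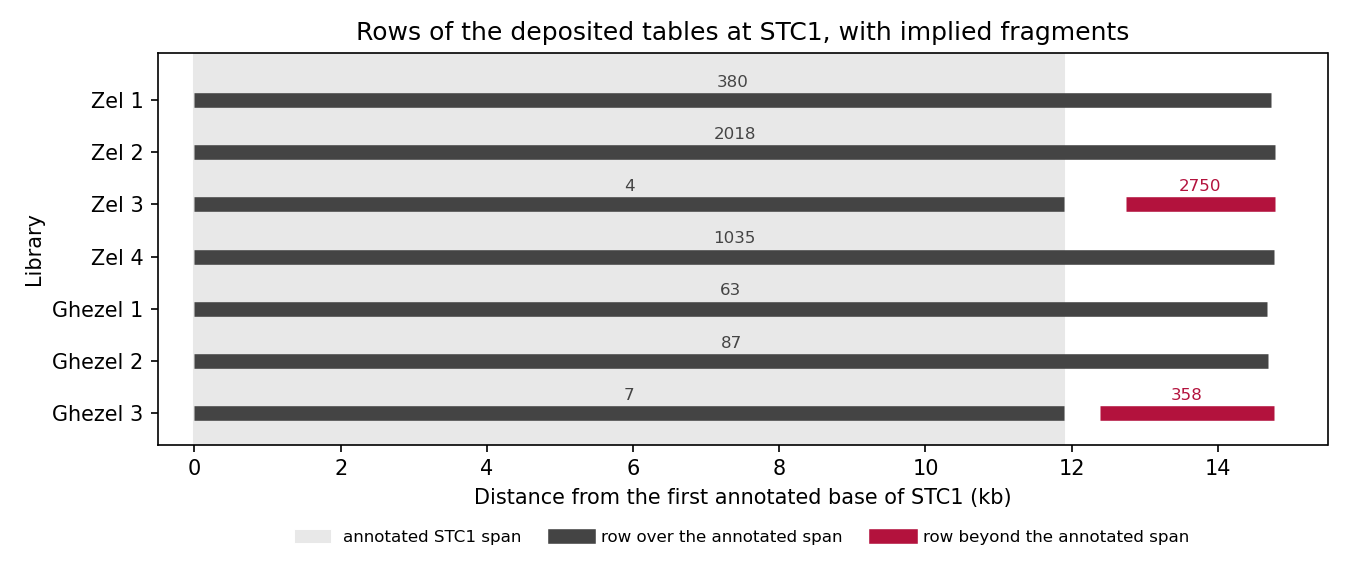
Rows of the 7 libraries around STC1, drawn by their distance in kilobases from the first annotated base of the gene, with the implied fragments of each row above it. Only in Zel 3 and Ghezel 3 is the region divided into a row over the gene, with 4.00 and 7.00 fragments, and a row beyond its end, with 2750 and 358.

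Such a division was more frequent in the libraries with short assembled loci. A row with a reference ID that was followed, within 1000 bases on its high-coordinate side, by a row of the library's own with more than 10 times its fragments (or more than 10 fragments where it had under 1) was found 895 times in Zel 3, 657 times in Zel 4 and 278 times in Ghezel 3. In the other 4 libraries it was found 168 to 173 times. Zel 4, which had the second highest number, held STC1 in 1 undivided row.

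To give STC1 the same extent in every library, fragments were also summed over the widest span that its locus took in any library, 41704775-41719555. This measure was chosen after the data had been seen. The unit was FPM, the implied fragments of a gene per 1000000 implied fragments of the library, which is not scaled to length. The sums came to FPM values, with exact 95% Poisson intervals, of 48.6 (43.8 to 53.7) in Zel 1, 276 (264 to 288) in Zel 2, 359 (345 to 372) in Zel 3 and 133 (125 to 141) in Zel 4. Ghezel 1, Ghezel 2 and Ghezel 3 had 8.53 (6.56 to 10.9), 11.6 (9.25 to 14.3) and 46.8 (42.1 to 51.8). Zel 3 moved from the lowest STC1 value of all libraries to the highest, and Ghezel 3 from the lowest to the highest of its breed.

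In the order by the widest span, Zel 3 was followed by Zel 2, Zel 4, Zel 1, Ghezel 3, Ghezel 2 and Ghezel 1. The intervals of the neighbours Zel 1 and Ghezel 3 overlapped, as did those of Ghezel 2 and Ghezel 1. All 4 Zel libraries were above all 3 Ghezel libraries, by a margin of 1.04 times between the lowest Zel and the highest Ghezel library. Among the 8195 matched loci with a mean FPKM of at least 1, each read from a single row per library, 1.43% were separated this way in FPM. STC1 read in that way was not separated, with 0.520 FPM in the lowest Zel and 11.6 in the highest Ghezel library. That share is therefore no reference for the widest span, and the separation is given as a description only.

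**Figure D3:**
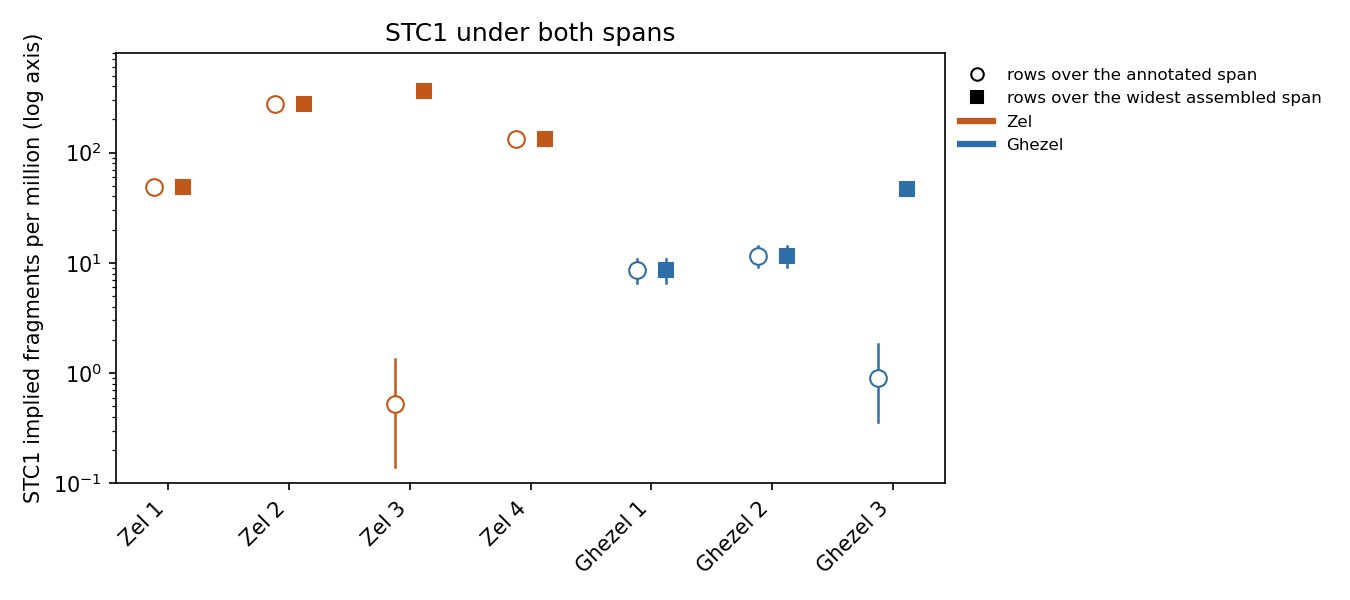
STC1 in FPM on a log axis, by library, over the annotated span (open circles) and over the widest assembled span (filled squares), with exact 95% Poisson intervals. Both symbols coincide in 5 libraries, whereas Zel 3 rises to 359 and Ghezel 3 to 46.8 with the widest span.

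Per length, STC1 ranked differently among the loci of each library. By the FPKM of its row over the gene it exceeded 63.9%, 92.7%, 8.65% and 78.6% of the loci with a span over 300 bases and an FPKM above 0 for Zel 1 through Zel 4, and 28.8%, 34.1% and 10.8% for Ghezel 1 through Ghezel 3. The ranks of Zel 3 and Ghezel 3 leave out the row beyond the gene. Over the widest span the spread within each breed was wide, with the highest Zel library 7.38 times the lowest and the highest Ghezel library 5.48 times the lowest.

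The mean STC1 level of the breeds differed by more than 9-fold under both extents, and its size depended on single libraries. Over the annotated span the FPKM averaged 21.3 ± 27.5 (SD, n = 4) among Zel lambs and 1.01 ± 0.504 (SD, n = 3) among Ghezel lambs. The ratio of 21.0 became 7.88 without Zel 2 and 16.3 to 27.9 without any other library. Over the widest span, Zel had 204 ± 140 (SD, n = 4) and Ghezel 22.3 ± 21.3 (SD, n = 3) FPM, a ratio of 9.15. This ratio was 20.3 without Ghezel 3 and 6.84 to 11.5 without any other library. The SD of Zel exceeded its mean over the annotated span but not over the widest span.

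The direction of the STC1 difference was the same within both naming styles. Over the widest span, the 3 Zel libraries named with breed letters had a mean of 180 FPM against 46.8 in Ghezel 3, a ratio of 3.85. Among the libraries named without them, Zel 2 had 276 and both Ghezel libraries had a mean of 10.04, a ratio of 27.5. Each style left at least 1 breed with 1 library, so neither comparison has a replicate check on both sides. In bulk tissue, a lower number of the cells that make a transcript and less of it per cell cannot be told apart.

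SCG5 rested on few fragments. Its rows held 6.0, 38.0, 61.9 and 68.8 implied fragments for Zel 1 through Zel 4, and 1.99, 1.00 and 12.2 for Ghezel 1 through Ghezel 3. In FPM, with exact 95% Poisson intervals, these were 0.767 (0.281 to 1.67), 5.21 (3.68 to 7.14), 8.07 (6.18 to 10.3) and 8.80 (6.85 to 11.1) for Zel 1 through Zel 4. In Ghezel 1 to Ghezel 3 they were 0.269 (0.0324 to 0.972), 0.133 (0.00338 to 0.744) and 1.56 (0.813 to 2.72). Ghezel 1 and Ghezel 2 were below the level of 3 fragments, which is 0.404 and 0.400 FPM there, and SCG5 was near the limit of detection in both.

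The extent of the SCG5 locus varied less than that of STC1. The row kept the reference ID in Zel 1, Ghezel 1 and Ghezel 2. In the other 4 libraries it carried an ID of the library and began 240 to 278 bases before the annotated gene, and in Zel 2 and Zel 4 it also ran 1561 and 1569 bases past its end. The widest span, 27007985-27063427, took in no further row, so both extents gave the same fragments.

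The order of SCG5 by FPKM was Zel 4, Zel 3, Zel 2, Ghezel 3, Zel 1, Ghezel 1 and Ghezel 2. From Zel 2 downward, the FPKM intervals of each pair of neighbours overlapped, while the FPM intervals of Zel 2 and Ghezel 3 did not. Zel 4 had 2.35 times the FPKM of Zel 3, with intervals that did not meet, but 1.09 times its FPM, with intervals that did. The gap between Zel 4 and Zel 3 was thus seen on the FPKM scale and not on the FPM scale. Among the loci with a span over 300 bases and an FPKM above 0, SCG5 exceeded 16.5%, 48.0%, 51.4% and 75.3% for Zel 1 through Zel 4 by FPKM, and 8.81%, 6.18% and 27.6% for Ghezel 1 through Ghezel 3.

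The mean FPKM of SCG5 was 5.95 ± 5.85 (SD, n = 4) among Zel lambs and 0.569 ± 0.681 (SD, n = 3) among Ghezel lambs, a ratio of 10.5. The ratio was 5.68 without Zel 4, 33.5 without Ghezel 3 and 7.45 to 13.5 without any other library. In FPM the means were 5.71 ± 3.64 (SD, n = 4) and 0.655 ± 0.789 (SD, n = 3), a ratio of 8.72. At least 3 of the 4 Zel libraries lay above all Ghezel libraries for both genes over their annotated spans, a pattern held by 7.94% of the matched loci, and nothing is read from it since the genes were chosen on this contrast. The breeds overlapped for SCG5 in that Zel 1, at 0.775 FPKM, lay below Ghezel 3, at 1.35 FPKM.

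Within the naming styles, SCG5 had a mean FPKM of 6.96 in the 3 Zel libraries named with breed letters against 1.35 in Ghezel 3. Among those named without them it had 2.92 in Zel 2 against a mean of 0.178 in both Ghezel libraries. SCG5 was higher in Zel in each.

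The level of SCG5, and that of STC1 over its widest span, moved with the length of the assembled loci across the libraries. By FPKM over the annotated span, STC1 was instead lowest in Zel 3 and, within its breed, in Ghezel 3. No correlation was computed for that extent. Zel 3 and Zel 4, with the shortest loci, had the highest SCG5 values, and Ghezel 3, with the shortest loci of its breed, had the highest SCG5 and widest-span STC1 values of its breed. Across the 7 libraries, the log2 level had a Pearson r of −0.86 (Spearman −0.86) with the log2 median span for SCG5, by scaled FPKM, and of −0.65 (Spearman −0.71) for STC1, by FPM over the widest span, as a description over points that share their library preparation and depth. The part of assembly in the breed difference was not tested. Without Zel 3 and Zel 4 the ratio of mean FPKM for SCG5 was 3.25, and without Ghezel 3 as well it was 10.4. For STC1 over the widest span the same omissions gave ratios of 7.29 and 16.2.

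**Figure D4:**
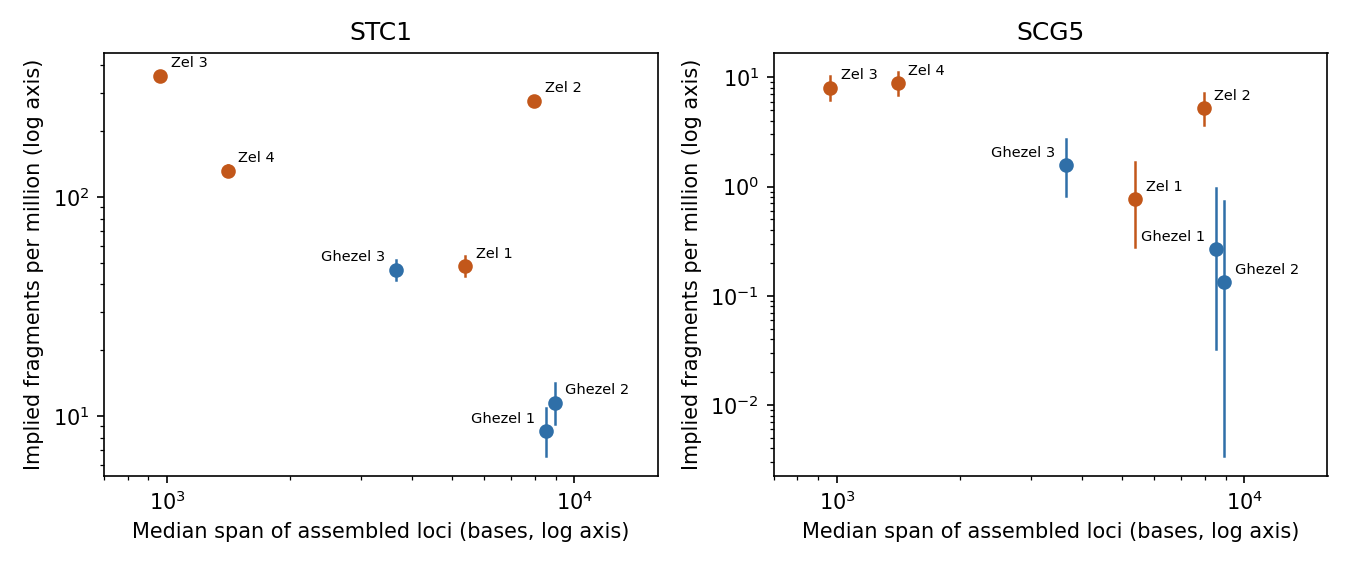
FPM (implied fragments scaled to library depth) of STC1 over its widest span and of SCG5 against the median span of each library's assembled loci in bases, both axes log, with exact 95% Poisson intervals. Zel 3 and Zel 4 lie at the left with median spans of 963 and 1409 bases, and Zel 2 lies high in both panels at a median span of 7960 bases.

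The order of lambs was more alike for both genes with STC1 taken over its widest span. On that extent, as log2 FPM, STC1 had a Pearson r of 0.81 (Spearman 0.82) with the log2 scaled FPKM of SCG5 over the 7 libraries, and as log2 scaled FPKM over the annotated span it was 0.36 (Spearman 0.14). These 7 points share the libraries and their assembly, and no p is given.

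Neighbouring genes, whose values the choice of STC1 and SCG5 did not use, were compared between the breeds in the same way. Their values took only rows that overlapped the annotated gene, so any row beyond its end was left out. The neighbours were the 3 nearest reference genes with any signal on each side, 12 in all. None was called by limma on log2(scaled FPKM + 1), where scaled means divided by a size factor per library, with the thresholds of 0.05 for the adjusted p and 1.1 for the absolute log2 fold change. None had an unadjusted p under 0.05, and the lowest adjusted p was 0.770. Over the 11 alternatives to this limma fit the lowest adjusted p was 0.467 (without Zel 1), and 1 neighbour had an unadjusted p under 0.05 without Zel 2 (limma, 0.0332) and 1 without Ghezel 3 (limma, 0.00487). The lowest p of the exact permutation test over all 35 splits, two-sided, was 0.143, or 0.549 adjusted over the 12 genes. In the whole set of 8195 matched loci, the same limma fit called 0% higher and 0% lower in Zel, while the unadjusted p fell below 0.05 for 1.57% with a higher and 1.84% with a lower level in Zel.

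Only 4 of the 12 neighbours reached 100 implied fragments in any library, and the other 8 peaked at 1.00 to 31.4. The 4 include a short gene 499 kb from STC1, whose fragments come from rows shared with the gene 486 kb away. For comparison, the FPKM of every Zel library exceeded that of every Ghezel library at 1.61% of the matched loci and was below it at 2.67%. None of the neighbours was separated in either direction.

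The nearest reference genes with any signal lay 118 kb from STC1 on the low-coordinate side, with 1.00 fragment in Zel 3 alone, and 187 kb on the high-coordinate side. The gene 582 kb away on the low side, ENSOARG00000010002, had an FPKM of 0.815, 2.02, 0.0152 and 0.148 for Zel 1 through Zel 4 and of 11.6, 5.15 and 0.177 for Ghezel 1 through Ghezel 3. Ghezel 1 and Ghezel 2 were its highest libraries, and Ghezel 3 was below Zel 1 and Zel 2. Its log2 fold change of −1.46 (SE 0.79) had a limma adjusted p of 0.770. The change was −2.41 without Ghezel 3 (limma unadjusted p 0.00487, adjusted 0.636) and −0.78 without Ghezel 1. The gene 486 kb away on the high side was expressed in all lambs, at 10.2 to 21.2 FPKM in Zel and 14.0 to 21.6 in Ghezel, with a log2 fold change of 0.03. This gene shares rows with a short gene inside it, and its sign was not stable, at −0.88 with only the row of largest overlap, −0.17 with no scaling, −0.12 without Zel 2 and −0.07 without Ghezel 1.

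Around SCG5, the nearest gene lay 4.94 kb beyond its end and was almost silent, at 0 to 0.236 FPKM. The 3 genes on the low side were at or below 0.190 FPKM in every library. The gene 286 kb away on the high side, ENSOARG00000020005, had 4.13, 3.39, 1.08 and 1.42 FPKM for Zel 1 through Zel 4 and 6.26, 4.40 and 3.74 for Ghezel 1 through Ghezel 3. Zel 1 lay within the range of the Ghezel libraries and the other 3 Zel libraries lay below it. Zel 3 and Zel 4, the lowest, were the libraries with the shortest assembled loci. The log2 fold change of this gene was −0.67 (SE 0.45), with a limma adjusted p of 0.770. In the RefSeq annotation of ARS-UI_Ramb_v3.0, the protein-coding neighbours of STC1 are ADAM28 and NKX2-6 and those of SCG5 are GREM1 and ARHGAP11A, but these symbols could not be tied to the IDs of the tables.

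**Figure D5:**
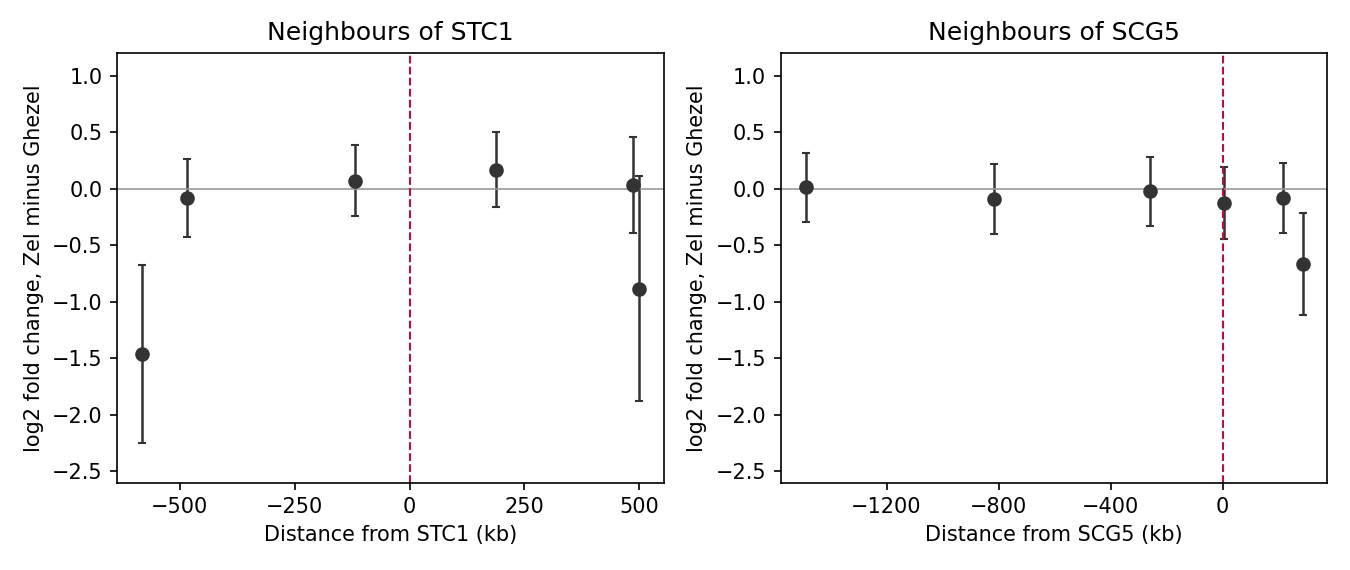
Log2 fold change (Zel minus Ghezel) of the 3 nearest reference genes with signal on each side of STC1 and of SCG5, with its standard error from limma, against the distance from the gene in kilobases (dashed line at the gene). The points farthest from 0 are the gene 582 kb from STC1, at −1.46, and the gene 499 kb from it, at −0.88, and none was called. The latter takes its value from rows shared with the gene 486 kb from STC1.

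Some loci elsewhere in the genome followed the profile of each gene over the 7 libraries. For SCG5, the closest was a locus without a reference ID on chromosome 14:51767039-51795677 with a Pearson r of 0.99 on log2(scaled FPKM + 1). Its FPKM was 5.46, 14.4, 21.8 and 31.6 for Zel 1 through Zel 4 and 4.75, 3.54 and 8.30 for Ghezel 1 through Ghezel 3. This is the same order of the 7 libraries as that of SCG5. The closest with a reference ID was ENSOARG00000012643 on chromosome 15:53760886-53778332, at r = 0.97. An r above 0.9 with SCG5 was found at 256 loci, or 3.12%, a count that includes SCG5 itself, and one below −0.9 at 505.

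The likeness to STC1 depended on its extent. With the annotated span, 9 loci had an r above 0.9, a count that includes STC1 itself. Among the others with a reference ID, ENSOARG00000020158 on chromosome 3:148947359-149072552 led at 0.96. With the widest span there were 72, led by a locus on chromosome 8:9372575-9374031 at 0.98. The latter had 4.55, 9.29, 5.02 and 5.65 FPKM for Zel 1 through Zel 4 and 2.31, 2.22 and 4.58 for Ghezel 1 through Ghezel 3. Like STC1 over the widest span, it had Ghezel 3 as the highest Ghezel library, while Zel 1 and Ghezel 3 were nearly level.

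Of the pathway lists, those of the stanniocalcin and IGF binding axis (10 genes), the regulated secretory pathway (12 genes) and the hypoxia response (11 genes) had no gene that could be placed by ID. From 4 secreted proteins that the study itself listed as higher in Zel, SAA1 and LIPG could be placed, and as they were chosen on these lambs they are not independent evidence of a direction. SAA1, an acute-phase apolipoprotein, had an FPKM of 16.3, 1305, 8.19 and 237 for Zel 1 through Zel 4 and of 67.9, 1.55 and 3.56 for Ghezel 1 through Ghezel 3. In implied fragments it had 878, 1476, 589 and 1700 against 128, 90.9 and 213. By FPKM Ghezel 1 thus lay above Zel 1 and Zel 3, and by fragments it lay below them. The share of all loci with such an order by fragments was not computed, and nothing is read from it. SAA1 belongs to a family of closely alike genes, and the sharing of reads among them was not tested. LIPG, endothelial lipase, had 5.31, 117, 0 and 0.0373 for Zel 1 through Zel 4 and 1.83, 0.326 and 0 for Ghezel 1 through Ghezel 3. In implied fragments LIPG had 344, 2182, 0 and 1.99 in Zel and 68.9, 21.0 and 0 in Ghezel. The libraries at or near 0, Zel 3, Zel 4 and Ghezel 3, were those with the shortest assembled loci. LIPG was read over its annotated span only, and rows beyond it were not examined. By FPKM, Zel 2 was the highest library for SAA1 and LIPG, as for STC1 over its annotated span, whereas SCG5 was highest in Zel 4. The SAA1 FPKM of Zel 2 and Zel 4 summed 2 rows, against 1 row in every other library. By fragments SAA1 was highest in Zel 4, and STC1 over its widest span was highest in Zel 3.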

How the data were processed

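Poly(A) RNA of tail adipose tissue was sequenced as paired-end reads. Per the study's methods, the authors checked and trimmed reads with FastQC and Trimmomatic, mapped them with Bowtie and TopHat, and quantified transcripts with Cufflinks. The methods and the labels name different genome builds; the deposited tables were read as Oar_v3.1 after the labels, and no annotation release was named. Each library came as 1 Cufflinks gene table that the authors deposited in FPKM, normalized for transcript length and mapped fragments, with 95% confidence bounds and a status. Libraries are named by their GEO labels, and the paper numbers the lambs within a breed in another order. Loci whose status was not OK (1 in Zel 3, 2 in Zel 4) were set to missing.

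Cufflinks bounds lie 2 standard deviations from the FPKM, so implied fragments were computed as (2 × FPKM / (upper bound − FPKM)) squared. Of loci with under 200 implied fragments, 34.2% to 37.7% came out whole within 0.02, so no count model was fitted to them. Poisson intervals and the level of 3 fragments take them as if they were counts, are approximate for that reason, and cover counting error only. Loci were matched between libraries by reciprocal best overlap covering 0.8 or more of the longer span. Of 22115 such loci, 8195 passed a mean FPKM of 1. Values were scaled by the median ratio (size factors 0.715 to 1.27) and log2(scaled FPKM + 1) was fitted with limma 3.58.1 (trend, Benjamini-Hochberg) in R 4.3.3, tested on simulated data. Fold changes are on that scale, which understates those of low genes. Single genes were compared by exact permutation, whose smallest p is 0.0286.

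The genes and lists were chosen with earlier results of these data known. Named were STC1 and SCG5, their 3 nearest reference genes with signal on each side, the 5 loci most correlated with each, and the list genes that could be placed. For reading, only some of these are named by ID. Of the IDs in the tables, 0 matched the RefSeq table. Libraries with the same number in both breeds deviated together (r = 0.27, 0.15 and 0.31 over matched loci), but so did Zel 2 and Ghezel 1 (0.31) and Zel 4 and Ghezel 3 (0.27), and nothing in the sources ties the numbers. The alternatives were the pseudocount, the scaling, the filter, the overlap, a naming or number term and leaving out libraries.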

Additional observations from a re-analysis of the deposited data

Results flagged for a closer look

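Values outside the rows of the annotated genes were found beside STC1 in both libraries with a divided locus. The row beyond the annotated end held 2750 implied fragments in Zel 3 and 358 in Ghezel 3, far above the level of 3 fragments, and is not counted in the STC1 FPKM of those libraries.

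Among the neighbours, ENSOARG00000024656 stood out for 1 library. This 136-base gene lies inside the gene 486 kb from STC1 and takes its value from the same rows, so its FPKM is uncertain. With only the row of largest overlap, its log2 fold change was 0 and the gene around it took on the −0.88. The summed FPKM was 15.0 in Zel 2, against 2.30 in Zel 1 and 0 in Zel 3 and Zel 4. The value of Zel 2 was flagged by Dixon's Q, which takes values to be normally spread. With 0 in Zel 3 and Zel 4 that does not hold, so no rate by chance is given.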

How the results depend on the processing

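The difference of mean log2(scaled FPKM + 1), Zel minus Ghezel, was 2.39 for STC1 and 1.97 for SCG5. It was above 0 under all 18 alternatives tried for each gene, from 1.51 to 3.36 for STC1 and from 0.82 to 3.24 for SCG5. These are not separate checks, and the genes were chosen on this same contrast. Keeping only the row of largest overlap, or ignoring the status, could not change the values, as each gene had 1 row per library. For SCG5 the widest span repeated the value by FPM. The alternatives moved the difference by less than 1 SD between libraries, except that a pseudocount of 0.1 gave 3.24 for SCG5. Leaving out 1 library at a time gave 1.51 (without Zel 2) to 3.36 (without Zel 3) for STC1 and 1.45 (without Zel 4) to 2.57 (without Zel 1) for SCG5. The widest span gave 3.16 for STC1, and leaving out Zel 3 and Zel 4 gave 0.82 for SCG5; both were chosen after the data had been seen. With the replicate number as a block, over the 6 libraries that have a partner, the differences were 2.06 and 1.45, the same as without Zel 4.

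No matched locus was called under any alternative but the omission of Ghezel 3, with 9, so that the range over single omissions was 0 to 9. The count at an unadjusted p under 0.05 was 280, with 502 without the filter, 434 with the replicate block and 73 (without Ghezel 2) to 894 (without Zel 1) over single omissions. Median scaling left Zel 0.09 below Ghezel at the median locus (log2), against 0.24 with no scaling. No neighbour was called under any of 11 alternatives. The cause of these changes was not tested. Depth limits SCG5 in Ghezel 2 and Ghezel 1, with 1.00 and 1.99 fragments.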
